A study of Mus musculus with 6 samples.

Results

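The E2F transcription factors and the pocket proteins that restrain them were examined as 1 gene family in early large pre-B (LPre-B) cells. The members were taken by name: *E2f1*, *E2f2*, *E2f3*, *E2f4*, *E2f6*, *E2f7* and *E2f8* of the E2F genes, and *Rb1*, *Rbl1* and *Rbl2* of the pocket protein genes. All 10 had a row among the 13426 genes of the deposited table. RNA-seq was run on 6 libraries of early LPre-B cells sorted from mouse bone marrow, 3 per group. The Ctrl mice were *Upf1* Flox/Flox with Mb1 +/+, and the *Upf1*-cKO mice were *Upf1* Flox/Flox with Mb1 Cre/+. Both groups therefore carried the floxed *Upf1* alleles, and the Cre allele, which is knocked into *Mb1* (*Cd79a*) and acts in the B lineage from its early stages, set them apart. Mice with Mb1 Cre/+ and unfloxed *Upf1* were not analysed here. The animals were age-matched adults of both sexes. The sorted cells were lineage negative, B220+, surface IgM-, CD43+, CD2- and large by forward scatter. UPF1, an RNA helicase, is a core factor of nonsense-mediated mRNA decay (NMD), and the comparison asks how transcript levels differ where the gene was to be deleted.

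E2F proteins bind a GC-rich word in the promoters of genes for DNA replication and cell division, mostly as a heterodimer with a DP protein. E2F1, E2F2 and E2F3 are known as activators. E2F4 works mainly as a repressor together with the pocket proteins, E2F6 represses through polycomb complexes without binding a pocket protein, and E2F7 and E2F8 are atypical repressors that bind DNA without a DP partner. RB1 holds the activators in check until cyclin D and cyclin E kinases phosphorylate it at the end of G1, while p107 (*Rbl1*) and p130 (*Rbl2*) join E2F4 and the MuvB proteins in the DREAM complex, which keeps cell cycle genes silent in resting cells. Early LPre-B cells are cycling B cell progenitors.

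The libraries held 9732498 to 11006834 reads assigned to genes, and the members took 171 to 6194 of them per library. Levels are given as normalised reads, that is, the reads of a gene plus 0.5 divided by the effective library size and multiplied by 1e6. The row of the targeted gene went against the labels. *Upf1* held 260, 203 and 259 normalised reads in the Ctrl libraries and 308, 283 and 300 in the *Upf1*-cKO-labelled libraries, a log2 fold change of 0.31 (SE 0.089 and adjusted p = 0.00696). Without Ctrl replicate 2, the lowest library, it was 0.19 (adjusted p = 0.0358). Reads of all its exons enter the row while loxP sites flank only some of them, so it does not check the deletion. The study reports that UPF1 protein was lost in pro-B and early LPre-B cells of *Upf1*-cKO mice. Other genes, chosen after their values were seen, ran the way the labels give. *Gas5*, *Gadd45b* and *Ddit3*, known NMD targets, were higher (325 ± 69.1 to 1622 ± 114, 6.89 ± 0.575 to 29.7 ± 2.51, and 10.3 ± 0.816 to 109 ± 1.67). *Cd79a*, the locus that holds Cre on 1 allele, was lower (221 ± 11.4 to 73.3 ± 1.85, a log2 fold change of -1.58 at an adjusted p of 1.24e-11 in limma). Of the B lineage markers, 10 of 10 were in the table, and their summed level was 3561 to 3668 in Ctrl and 2517 to 2600 in the cKO-labelled libraries. Markers of some other cells differed between the groups. The summed level of 9 neutrophil genes was 123, 19.0 and 14.7 in the Ctrl libraries and 464, 355 and 331 in the cKO-labelled ones, with 4 higher and 0 lower, so Ctrl replicate 1 stood apart in its group. That of 5 monocyte and macrophage genes ran from 36.7 to 64.3 and from 60.9 to 82.7, with 1 higher (*Lyz2*), 0 lower and 4 not past the test. The 4 markers of later pre-B cells (*Cd2*, *Il2ra*, *Cd22* and *Bcl6*) were all lower, with a summed level of 230 to 234 in Ctrl against 26.8 to 42.2. Of the erythroid list 4 of 8 genes were in the table (7.68 to 12.6 against 8.68 to 10.6), and of the T and NK list 2 of 7, at 1.17 to 1.59 against 3.79 to 5.27, with *Cd3d*, *Cd3e*, *Cd3g*, *Cd4* and *Cd8a* not in it. The 4 plasma cell genes summed to 72.1 to 88.5 against 52.7 to 66.0. The part of these markers in the family's values was not tested. In bulk RNA, fewer cells of a type and less RNA per cell cannot be told apart. Ctrl replicate 1 also stood apart from its group in *E2f2*, *E2f6* and *Rb1*. Without it, the log2 fold changes of these 3 were -0.63, 0.55 and -0.65, and 8 members were still lower and 1 higher.

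Most of the family was lower in the cKO-labelled libraries. Of the 10 members, 8 were lower at an adjusted p under 0.05 in limma, 1 (*E2f6*) was higher, and 1 (*Rbl2*) did not pass. Over all 13426 genes, 25.0% were lower, 27.7% were higher and 52.7% passed in either direction. The median log2 fold change was -0.60 over the members and 0.01 over all genes. The groups did not overlap in 9 of the 10 members, beside 58.8% of all genes. The split of calls moved with the scaling. Scaled to total reads, the median of all genes was 0.19, and 5172 genes were higher and 1936 lower. Of the calls over all genes 72.8% were then higher where 52.6% were before, and 7 members were lower and 2 higher. Centred on the median, 2992 genes were higher and 4355 lower (40.7% of calls higher, median -0.098), with 8 members lower and 1 higher. With quantile normalisation 3330 genes were higher and 3751 lower (47.0%, median -0.046), with 7 members lower and 1 higher. A single gene row with no symbol held 22.2%, 23.8% and 16.4% of the reads in the Ctrl libraries and 16.5%, 13.8% and 13.9% in the cKO-labelled ones, and these reads enter the totals. Its part in the split was not tested.

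**Figure D1:**
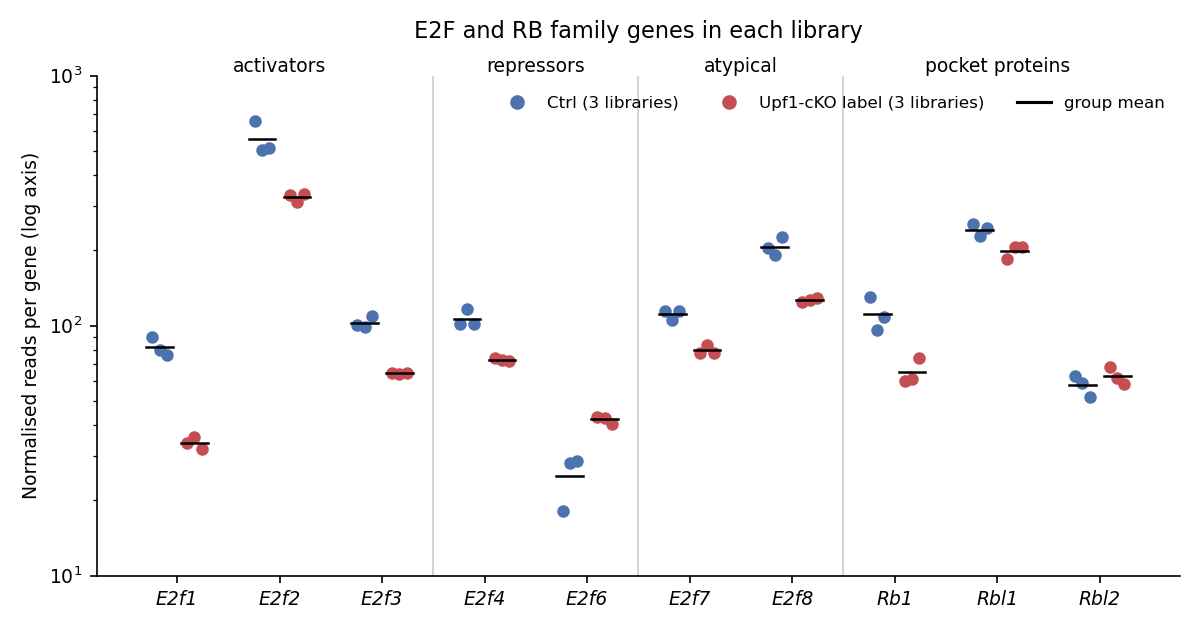
Normalised reads of each member in each of the 6 libraries on a log axis (points, blue Ctrl, red cKO-labelled), with the mean of the 3 libraries per group as a black line and the members ordered by class. The cKO-labelled points lie below the Ctrl points in 8 members, above them in *E2f6* and among them in *Rbl2*.

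Because E2F proteins are known to act on each other's promoters, the sequence before the transcription start of the members was read beside their levels. RefSeq windows on GRCm38.p6, from 250 bases before to 50 bases after a start, were at hand for 8 of the 10 members (not *E2f4* or *Rb1*). They were searched on both strands for the E2F words TTTCCCGC, TTTCGCGC, TTTGCCGC and TTTGGCGC and for TTTGAA, the core of the cell cycle homology region (CHR) that MuvB complexes bind. An E2F word stood in 4 of 8 members (*E2f2*, *E2f3*, *E2f7* and *Rbl1*), against 2.60% of all 27025 genes with a window and 4.83% of the 10193 in the data table. A CHR word stood in 4 of 8 (*E2f2*, *E2f3*, *E2f8* and *Rbl2*), against 20.2% and 14.5%. That of *E2f2* stood only in a second window, whose start lay 8508 bases inside the gene, and its first window held none. Both kinds of word are in capitals in the stretches printed here, which show members with a word in the window and, for contrast, *E2f6*, whose window held neither.
E2f3, chr13:29986064-29986183 on the - strand: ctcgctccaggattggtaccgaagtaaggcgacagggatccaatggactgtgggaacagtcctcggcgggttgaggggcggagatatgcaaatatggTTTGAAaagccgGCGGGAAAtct
Rbl1, chr2:157204535-157204654 on the - strand: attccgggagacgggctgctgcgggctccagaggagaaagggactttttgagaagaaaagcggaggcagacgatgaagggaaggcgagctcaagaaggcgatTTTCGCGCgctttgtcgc
E2f7, chr10:110745189-110745308 on the + strand: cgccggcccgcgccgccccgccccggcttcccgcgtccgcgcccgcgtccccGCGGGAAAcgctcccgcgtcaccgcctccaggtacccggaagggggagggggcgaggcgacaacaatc
E2f8, chr7:48881597-48881716 on the - strand: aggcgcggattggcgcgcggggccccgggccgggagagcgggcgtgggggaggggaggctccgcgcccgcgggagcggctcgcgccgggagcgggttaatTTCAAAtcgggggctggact
E2f2, chr4:136172294-136172323 on the + strand: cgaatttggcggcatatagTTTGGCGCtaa
E2f6, chr12:16810845-16810964 on the + strand: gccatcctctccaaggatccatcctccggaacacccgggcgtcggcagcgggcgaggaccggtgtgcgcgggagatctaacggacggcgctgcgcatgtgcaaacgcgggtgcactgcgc
The *E2f3* stretch carried the CHR word from -23 to -18 and the reverse of TTTCCCGC from -11 to -4, counted from -1 at the last base before the start. The word in *Rbl1* lay from -18 to -11, that in *E2f7* from -198 to -191, the reverse CHR word of *E2f8* from -20 to -15, and the *E2f2* word from +40 to +47 after the start. The *E2f1* window held neither kind of word, and its start lay 466 bases inside the outer end of the RefSeq gene, as that of *E2f8* lay 477 bases inside. A match of letters is a description of these windows and not a site of binding.

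The activators were lower, and *E2f1* was the member that differed most. *E2f1*, the activator also known for driving apoptosis genes, lies on chromosome 2 (154559400 to 154569892, minus strand, GRCm38; Entrez 13555). It held 90.2, 80.0 and 76.2 normalised reads in the Ctrl libraries and 33.8, 35.8 and 32.2 in the cKO-labelled ones, from 346 to 849 reads per library. Every cKO-labelled library was far below every Ctrl library. The mean fell by 58.7%, from 82.1 ± 7.26 to 33.9 ± 1.84 (SD, n = 3), and the log2 fold change was -1.25 (SE 0.0954 and adjusted p = 4.35e-09). *E2f2*, the activator with the most reads (3412 to 6194 per library; chromosome 4, 136172274 to 136196057, plus strand; Entrez 242705), held 658, 505 and 514 in Ctrl and 333, 313 and 337 in the cKO-labelled libraries. Here Ctrl replicate 1 stood above the others of its group, and the lowest Ctrl library was still above the highest cKO-labelled one. The log2 fold change of *E2f2* was -0.76 (SE 0.0895 and adjusted p = 1.21e-06), from 559 ± 86.0 to 328 ± 12.6. *E2f3*, whose gene makes a long and a short activator form from separate starts (chromosome 13, 29906575 to 29986064, minus strand; Entrez 13557), held 101, 98.5 and 109 against 64.8, 64.3 and 64.5. The 3 cKO-labelled libraries were nearly the same, at 64.6 ± 0.257, and lay below the Ctrl mean of 103 ± 5.63 with a log2 fold change of -0.66 (SE 0.082 and adjusted p = 2.04e-06). The table has 1 row for the gene and does not separate its forms.

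The 2 repressors in the family, *E2f4* and *E2f6*, went opposite ways. *E2f4*, the main E2F of the DREAM complex (chromosome 8, 105297663 to 105305370, plus strand; Entrez 104394), held 102, 116 and 101 normalised reads in Ctrl and 74.1, 72.6 and 72.5 in the cKO-labelled libraries. The mean fell by 31.3%, from 106 ± 8.50 to 73.1 ± 0.910, and the log2 fold change was -0.53 (SE 0.0839 and adjusted p = 3.29e-05). *E2f6*, the polycomb-linked repressor (chromosome 12, 16810909 to 16826752, plus strand; Entrez 50496), was the only member called higher. It held 18.2, 28.1 and 28.8 in Ctrl and 43.2, 42.8 and 40.5 in the cKO-labelled libraries, on 171 to 480 reads. Ctrl replicate 1 was the lowest of all 6, and every cKO-labelled library was above every Ctrl library. The mean went from 25.1 ± 5.94 to 42.2 ± 1.44, a rise of 68.2%, and the log2 fold change was 0.75 (SE 0.141 and adjusted p = 0.000236). Without Ctrl replicate 1 the log2 fold change was 0.55 (adjusted p = 0.000218). *E2f5*, the other pocket protein partner among the repressors, is not among the 10 members and was looked at after the members' values were seen. It was low, at 9.61, 9.45 and 11.0 in Ctrl and 16.2, 13.0 and 14.1 in the cKO-labelled libraries, and its log2 fold change was 0.49 (SE 0.148 and adjusted p = 0.00971).

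Both atypical members were lower. The pair are known as targets of the activators that in turn repress *E2f1*. *E2f7* (chromosome 10, 110745439 to 110787384, plus strand; Entrez 52679) held 115, 105 and 114 normalised reads in Ctrl against 78.1, 83.7 and 77.9. *E2f8* (chromosome 7, 48866429 to 48882073, minus strand; Entrez 108961) held 204, 192 and 226 against 124, 126 and 129. In neither gene did a cKO-labelled library reach the lowest Ctrl library. The log2 fold change was -0.47 (SE 0.081 and adjusted p = 7.6e-05) for *E2f7*, from 111 ± 5.23 to 79.9 ± 3.29, and -0.71 (SE 0.0791 and adjusted p = 5.78e-07) for *E2f8*, from 207 ± 17.6 to 126 ± 2.22.

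The 3 pocket proteins differed from each other. *Rb1*, the retinoblastoma tumour suppressor that binds the activators (chromosome 14, 73192858 to 73325951, minus strand; Entrez 19645), held 131, 96.1 and 108 normalised reads in Ctrl and 60.0, 61.0 and 74.1 in the cKO-labelled libraries. Its libraries spread widely within each group, and the groups still did not overlap. The mean fell by 41.8%, from 112 ± 17.4 to 65.0 ± 7.86, and the log2 fold change was -0.77 (SE 0.109 and adjusted p = 1.23e-05). *Rbl1*, which codes for p107 and is itself known as an E2F target (chromosome 2, 157145893 to 157204534, minus strand; Entrez 19650), held 254, 228 and 245 against 185, 207 and 207. This was the smallest of the called differences, a log2 fold change of -0.28 (SE 0.0771 and adjusted p = 0.00513) from 242 ± 13.2 to 200 ± 12.5. The call was lost without *Upf1*-cKO replicate 1, at -0.23 (adjusted p = 0.0552), and with libraries scaled to total reads, at -0.077 (adjusted p = 0.487). *Rbl2*, which codes for p130, the pocket protein of resting cells (chromosome 8, 91070057 to 91123844, plus strand; Entrez 19651), held 63.0, 59.0 and 52.1 in Ctrl and 68.3, 61.9 and 58.7 in the cKO-labelled libraries. The groups overlapped, and the log2 fold change of 0.12 (SE 0.0966 and adjusted p = 0.324) did not pass. Scaled to total reads it was 0.32 (adjusted p = 0.0095).

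**Figure D2:**
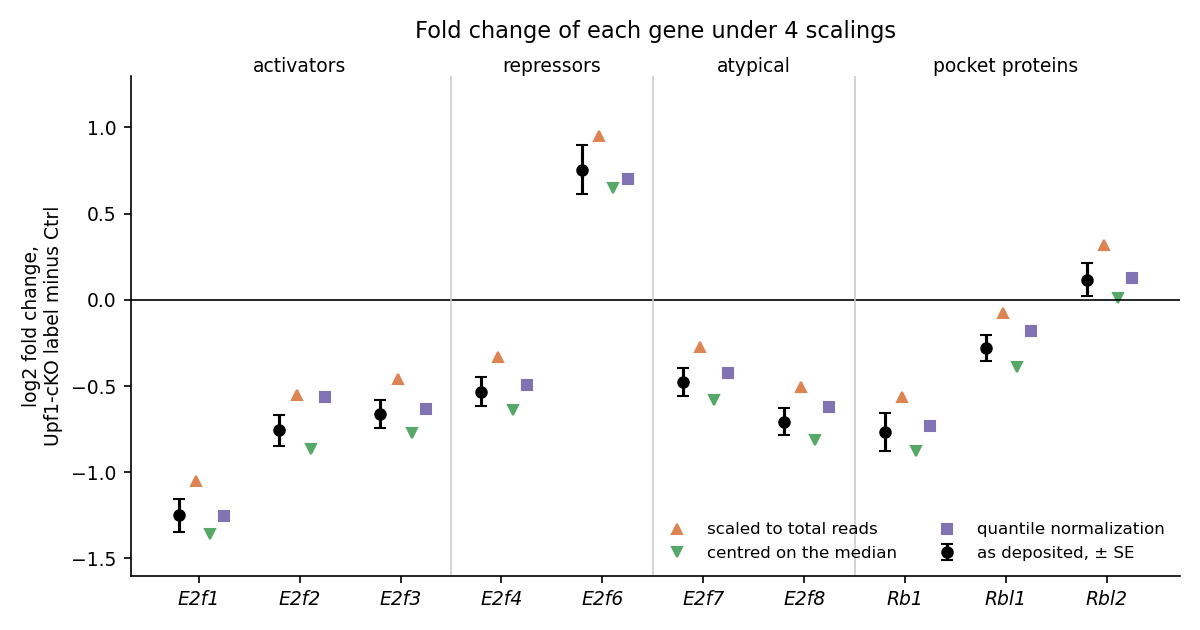
Log2 fold change of each member, cKO-labelled minus Ctrl, with the values as deposited (black points, with the moderated SE of the limma fit as bars) and under 3 other scalings (coloured marks, no bars). *E2f1* is the lowest member under each scaling and *E2f6* the highest, total reads give the highest value of each member, and *Rbl2* lies above 0 in all.

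Per length of transcript, *E2f2* was the most abundant member in both groups, at 118 normalised reads per kb in Ctrl and 69.2 in the cKO-labelled libraries. In Ctrl the order went on with *E2f8* (56.2), *E2f4* (53.3), *Rbl1* (49.9), *E2f1* (29.8), *Rb1* (24.0), *E2f7* (20.4), *E2f3* (20.2), *Rbl2* (11.8) and *E2f6* (8.31). The library ranges of *E2f8* and *E2f4*, of *E2f4* and *Rbl1*, and of each neighbour from *E2f1* to *E2f3* overlapped, so these places in the order do not differ beyond their spread. In the cKO-labelled libraries the order was *E2f2*, *Rbl1* (41.0), *E2f4* (36.7), *E2f8* (34.2) and then *E2f7* (14.6), with no overlap between these neighbours. From *E2f7* on, each member overlapped with the next, with *E2f6*, *Rb1*, *Rbl2*, *E2f3* and *E2f1* between 14.0 and 12.3. *E2f1* thus stood in the fifth place in Ctrl and had the lowest mean in the cKO-labelled libraries.

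**Figure D3:**
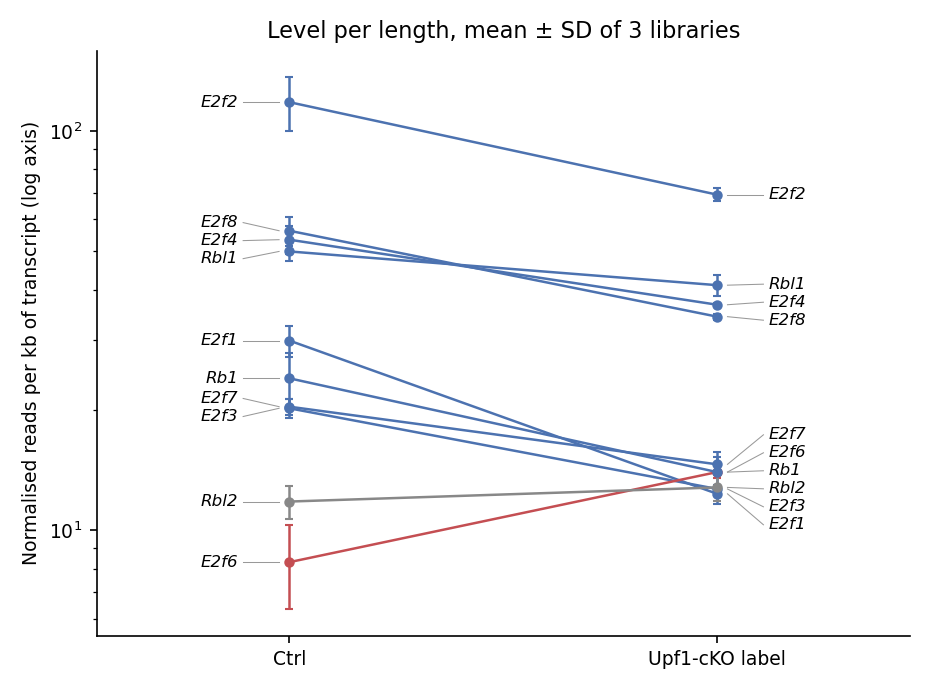
Mean normalised reads per kb of transcript (log axis) of the 10 members in Ctrl and in the cKO-labelled libraries, with the SD of 3 libraries as bars and blue, red and grey for lower, higher and not called. The line of *E2f1* crosses those of *Rb1*, *E2f7*, *E2f3*, *Rbl2* and *E2f6*, and the members below *E2f8* draw together at 12.3 to 14.6 per kb.

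The makeup of the family by class was set side by side as shares of the summed level per kb, a description that carries no test. The activators made up 54.7% ± 3.68 of the summed E2F level in Ctrl and 48.6% ± 0.701 in the cKO-labelled libraries, with library ranges that did not overlap. The repressors *E2f4* and *E2f6* made up 20.2% ± 2.73 and 26.2% ± 0.463, and the atypical members 25.0% ± 2.07 and 25.2% ± 0.590. So the activators' share was lower, the repressors' share was higher and that of the atypical members overlapped, while the sum itself was 306 ± 16.3 and 194 ± 1.53 normalised reads per kb. Among the pocket proteins, *Rb1* made up 27.9% ± 2.08 in Ctrl and 20.6% ± 1.80 in the cKO-labelled libraries, *Rbl1* 58.3% ± 1.92 and 60.5% ± 1.81, and *Rbl2* 13.8% ± 1.25 and 18.9% ± 2.26. Their sum was 85.6 ± 6.89 and 67.8 ± 2.81 per kb.

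Ratios of members within a library do not depend on how libraries are scaled, and 6 were compared. In none did the groups overlap, and each reached p = 0.1 in a two-sided exact permutation test that took all 20 ways to assign the libraries, the smallest p that 3 against 3 libraries allow (0.1 after Benjamini-Hochberg adjustment over the 6), so none could pass 0.05. The ratio of *E2f1* to *E2f4* was 0.889, 0.689 and 0.752 in Ctrl and 0.456, 0.493 and 0.444 in the cKO-labelled libraries, a log2 difference of -0.73. That of *E2f1* to *E2f3*, 0.895, 0.812 and 0.698 against 0.521, 0.557 and 0.498, differed by -0.60. *E2f1* was thus lower also relative to another activator and to a repressor of the same libraries. The ratio of *E2f6* to *E2f4* went from 0.179, 0.242 and 0.285 to 0.583, 0.589 and 0.559, a log2 difference of 1.32 and the widest of the 6. Between the atypical members, *E2f8* to *E2f7* stood at 1.77, 1.82 and 1.98 against 1.59, 1.51 and 1.65 (-0.23), the narrowest. Among pocket proteins, *Rbl1* to *Rb1* stood at 1.95, 2.37 and 2.26 against 3.09, 3.39 and 2.79 (0.49), and *Rbl1* to *Rbl2* at 4.03, 3.87 and 4.70 against 2.71, 3.34 and 3.52 (-0.40). *Rbl1* was higher relative to *Rb1* and lower relative to *Rbl2*.

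**Figure D4:**
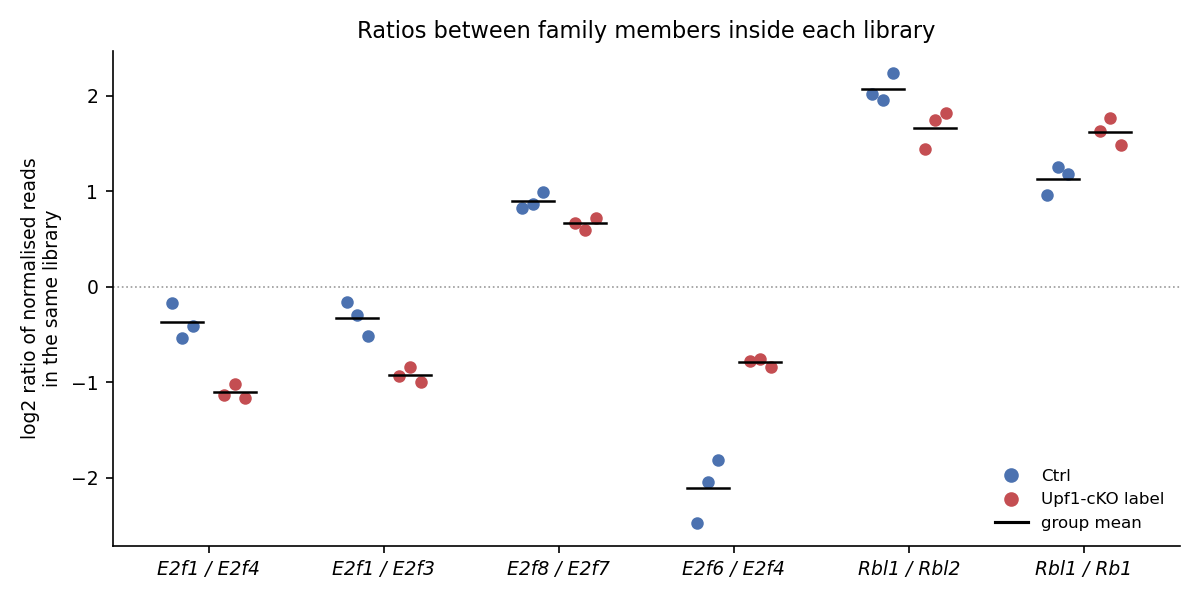
The 6 ratios of members within each library (points, log2 axis) in Ctrl and in the cKO-labelled libraries, with the group mean as a black line. The groups are separate in each ratio, with the widest gap in *E2f6* to *E2f4* and the narrowest in *E2f8* to *E2f7*.

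What the members share beyond their names was read from the annotation. GENCODE M21 gives a transcript of the NMD biotype for 3 of 10 members, *E2f6* (3 of its 7 transcripts), *E2f7* (1 of 9) and *Rb1* (1 of 6), beside 28.9% of the 12155 genes with a matched entry. Among them *E2f6* was higher and *E2f7* and *Rb1* were lower. The table counts reads per gene, so the levels of single transcripts were not measured. The 3′UTR of the longest coding form ran from 618 bases in *E2f8* to 3328 in *E2f3*, with a median of 1506 over the members and 1115 over 11957 genes. Mapping was unstranded, and exons of *Rb1* shared 488 of their 6015 bases with *Rcbtb2* and 408 with *Lpar6*. *Rcbtb2* held 51.8 ± 2.74 normalised reads in Ctrl and 55.7 ± 2.75 in the cKO-labelled libraries (adjusted p = 0.358), and *Lpar6* 15.4 ± 3.01 and 17.2 ± 1.92 (adjusted p = 0.386), and neither passed the test. Exons of *Rbl2* shared 693 of 7558 bases with *Aktip* (12.9 ± 1.42 and 12.2 ± 1.78, adjusted p = 0.707) and 892 with *Gm45464*, those of *E2f8* shared 610 of 5443 with *Gm2788*, and those of *E2f7* shared 86 of 9009 with *1700020G17Rik*. All of these genes lie on the opposite strand to the member. As it is not given whether counting used strand, it is not known if reads in the shared bases were told apart. The other 6 members shared no exon bases with another gene.

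The genes whose level went most alike with the members at either end were picked by Pearson's r of the log2 values over the 6 libraries among 9202 genes, as a description. For *E2f1* they were *Sh3bgrl* (r = 0.9997, log2 fold change -0.53), *Eif4ebp2* (0.9996, -0.87), which codes for a binding protein that restrains translation initiation, and a row with no symbol (0.9995, -1.68). For *E2f6* they were *Atad3a* (0.998, 0.46), *Lsg1* (0.997, 0.34) and *Rbm10* (0.993, 0.23). With 6 points that fall into groups of 3, such values rest mostly on the difference between the groups.

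Both DP genes in the table fell: *Tfdp1* from 215 ± 12.1 to 135 ± 4.57 normalised reads (log2 fold change -0.66, adjusted p = 7.57e-07) and *Tfdp2* from 117 ± 5.38 to 93.9 ± 7.17 (-0.32, adjusted p = 0.00367). *Tfdp2* did not pass when scaled to total reads (-0.12, adjusted p = 0.29). Of 8 DREAM and MuvB partners, 3 were lower (37.5%, beside 25.0% of all genes), 0 were higher (beside 27.7%) and 5 did not pass. Centred on the median, 5 were lower, beside 4355 of all 13426 genes. The 3 were the histone-binding *Rbbp4* (616 ± 33.7 to 387 ± 8.76, -0.67), the G2/M activator *Foxm1* (246, 209 and 210 to 150, 144 and 149, -0.58) and the kinase *Dyrk1a* (282 ± 17.6 to 197 ± 9.72, -0.52), which phosphorylates LIN52. The MuvB core genes *Lin9* (-0.14), *Lin37* (0.13), *Lin52* (0.16) and *Lin54* (-0.04) and the B-Myb gene *Mybl2* (-0.13) did not pass.

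The kinases that inactivate RB were mostly lower. Of 9 genes for these kinases and their cyclins, 7 were lower, 1 was higher and 1 did not pass, with a median log2 fold change of -0.56, and 77.8% lower beside 25.0% of all genes. *Cdk2*, the kinase of cyclins E and A, went from 129 ± 5.26 to 73.5 ± 2.97 (-0.81, adjusted p = 1.26e-07), and *Ccnd3*, the D cyclin that pre-B cells depend on, from 639 ± 120 to 362 ± 19.3 (-0.80, adjusted p = 0.000143). *Ccna2* (-0.68) and the cyclin D partner *Cdk6* (-0.62) fell as well. The gene called higher, *Ccnd1*, was named after its values were seen; it was low, at 2.71 to 3.89 in Ctrl and 4.46 to 6.78 in the cKO-labelled libraries (0.55, adjusted p = 0.0313), and its call was lost, or the gene filtered out, in 7 of the alternative settings. Of 7 CDK inhibitors, 1 was higher, 3 were lower and 3 did not pass, beside 27.7% of all genes higher and 25.0% lower. *Cdkn1a*, the p53 target that codes for p21, rose from 28.7, 24.9 and 21.5 to 64.1, 64.2 and 65.1 (1.34, SE 0.108, adjusted p = 8.86e-09). *Cdkn2c* (88.2 ± 9.82 to 55.4 ± 5.20, -0.66) and *Cdkn2d* (63.3 ± 9.19 to 39.7 ± 4.31, -0.66), inhibitors of CDK4 and CDK6, fell, and *Cdkn2a* fell on few reads with groups that overlapped (-0.64, adjusted p = 0.034). The call of *Cdkn2a* was lost, or the gene filtered out, in 8 of 17 settings, among them edgeR (adjusted p = 0.0532), DESeq2 (adjusted p = 0.0817) and the fits without Ctrl replicate 1, Ctrl replicate 2, *Upf1*-cKO replicate 2 or *Upf1*-cKO replicate 3, with adjusted p from 0.0971 to 0.128 in these 4. Its fold change also moved with the scale, to -1.43 in edgeR, -1.45 in DESeq2 and -1.53 with no pseudocount. *Cdkn1b* (-0.13), *Cdkn1c* (0.36) and *Cdkn2b* (0.21) did not pass.

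Of 8 factors that turn over E2F and RB proteins or their partners, 5 were lower (62.5%, beside 25.0% of all genes), 0 were higher and 3 did not pass. Scaled to total reads 3 were lower, beside 1936 of all 13426 genes, and with quantile normalisation 1 was higher, beside 3330. *Btrc*, an F-box protein that also targets beta-catenin and IκB, differed most of all the genes in these lists that were lower, at 180, 170 and 178 normalised reads in Ctrl against 44.8, 52.4 and 49.5 (-1.83, SE 0.0839, adjusted p = 5.07e-12). *Cks1b* (-0.50), *Skp2* (-0.43), *Fzr1* (-0.41) and *Ddb1* (-0.21) fell too, while *Ccnf* (-0.14), *Huwe1* (-0.12) and *Cul4a* (-0.03) did not pass. Of 12 corepressors that pocket proteins recruit, 8 were lower (66.7%, beside 25.0% of all genes), 2 were higher and 2 did not pass. Only 5 were lower when scaled to total reads, beside 1936 of all genes. The 2 that rose were the remodelling ATPase gene *Smarca2* (35.7 ± 2.88 to 76.2 ± 3.94, 1.07, adjusted p = 2.7e-08) and the demethylase gene *Kdm5a* (240 ± 6.75 to 367 ± 7.15, 0.61, adjusted p = 6.91e-07). *Ctbp1* (-0.73) and *Rbbp7* (-0.65) were the lowest of those that fell.

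Of 10 polycomb partners of E2F6, 3 were higher, 3 were lower and 4 did not pass, with a median of -0.09. These shares lie near the 27.7% higher and 25.0% lower of all genes. *Pcgf6*, the subunit that defines the E2F6 form of the complex, rose from 18.4 ± 2.10 to 25.4 ± 1.35 (0.44, adjusted p = 0.00523). *Wdr5* (0.42) and *Mga* (0.24), named after their values were seen, rose too. *Ring1* (7.36 ± 0.259 to 4.28 ± 0.440, -0.67, adjusted p = 0.00399), *Yaf2* (-0.50) and *Rnf2* (-0.45) fell. Of 5 germline genes known to be repressed by E2F6, only *Stag3*, a meiotic cohesin subunit, was in the table. It rose from 8.34, 12.2 and 8.99 normalised reads to 24.6, 23.0 and 24.0, with groups far apart (1.22, SE 0.147, adjusted p = 1.51e-06).

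Of 48 genes known as G1/S targets of E2F, 39 were lower, 1 was higher and 8 did not pass, with a median log2 fold change of -0.61. The share lower was 81.2%, beside 25.0% of all genes. Without Ctrl replicate 1, with quantile normalisation and scaled to total reads, 2 were higher. The clamp loader subunit *Rfc3* (54.8 ± 5.32 to 24.0 ± 3.41, -1.16), the replicative helicase subunit *Mcm4* (351 ± 12.2 to 159 ± 9.61, -1.14), the licensing factor *Cdt1* (116 ± 5.01 to 54.6 ± 5.50, -1.08) and the histone mRNA binding protein *Slbp* (173 ± 13.7 to 81.5 ± 7.56, -1.08) differed most. The gene that rose, *Tyms*, the thymidylate synthase gene, named after its values were seen, held 124, 99.3 and 119 in Ctrl and 192, 194 and 216 in the cKO-labelled libraries (0.81, adjusted p = 4.62e-07). An E2F word stood in the window of 17 of the 37 genes of this list that had one, and a CHR word in 20 of the 28 of the G2/M list. Of 34 G2/M targets of DREAM, 26 were lower (76.5%, beside 25.0% of all genes), 5 were higher and 3 did not pass, with a median of -0.36. The phosphatase gene *Cdc25b* (371 ± 38.9 to 143 ± 9.74, -1.37) and the mitotic cyclin gene *Ccnb2* (174 ± 9.84 to 89.9 ± 0.860, -0.95) led those that fell, before *Ccna2* and *Ube2c* (-0.67). The 5 that rose, named after their values were seen, were *Ndc80* (0.64), *Cdc25c* (0.26), *Hmmr* (0.25), *Bub1* (0.20) and *Cenpf* (0.20). Their number lay between 1 and 5 when 1 library was left out, with 1 without *Upf1*-cKO replicate 3, 2 without Ctrl replicate 2, and 3 without Ctrl replicate 1, *Upf1*-cKO replicate 1 or *Upf1*-cKO replicate 2. It was also 1 when centred on the median or without trended and robust estimation, 2 in DESeq2 and 3 with the replicate block. Scaled to total reads, 12 of the G2/M genes were lower, beside 1936 of all 13426 genes.

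Of 12 apoptosis genes known as targets of E2F1, 10 were in the table (not *Trp73* or *Hrk*), and 2 were higher, 2 were lower and 6 did not pass. Both shares lie below the 27.7% and 25.0% of all genes. *Bbc3*, which codes for the p53-induced protein PUMA, rose from 1.97, 2.07 and 0.745 normalised reads to 16.1, 11.0 and 13.2 (2.50, SE 0.228, adjusted p = 4.16e-08). *Pmaip1*, which codes for NOXA, rose on few reads (2.56 ± 0.716 to 4.32 ± 0.365, 0.59, adjusted p = 0.0227), and its call was lost, or the gene filtered out, in 8 of 17 settings. *Diablo* (44.6 ± 5.89 to 33.5 ± 2.51, -0.40, adjusted p = 0.00555) and *Cdkn2a* were the 2 that fell. The number higher was 1 without Ctrl replicate 1, *Upf1*-cKO replicate 2 or *Upf1*-cKO replicate 3. The number lower was 1 with 1 of these or Ctrl replicate 2 left out, and in edgeR and DESeq2. With libraries scaled to total reads, 6 were higher and 0 lower, beside 5172 higher and 1936 lower of all 13426 genes. With a minimum mean log2 of 3, which filters out *Bbc3* and *Pmaip1*, 0 were higher. Some genes stand in more than 1 of the 11 lists, and of the 143 distinct genes 93 were lower (65.0%) and 16 higher (11.2%). These numbers were 67 and 22 when scaled to total reads, where 1936 of all genes were lower and 5172 higher.

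**Figure D5:**
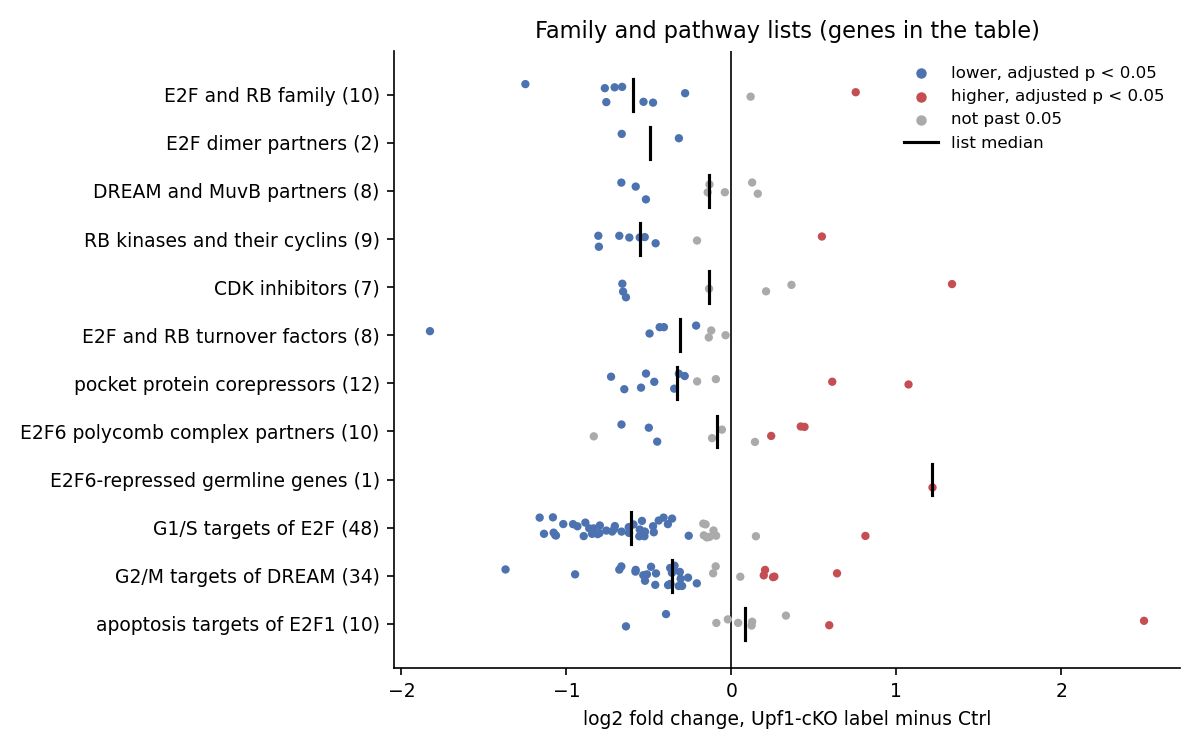
Log2 fold change, cKO-labelled minus Ctrl, of each gene of the family and of the pathway lists that was in the table (points, blue lower, red higher, grey not past an adjusted p of 0.05), with the list median as a black bar and the number of genes in brackets. The G1/S targets lie mostly left of 0 around -0.61, and *Bbc3* lies furthest right at 2.50.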

How the data were processed

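RNA was read from 6 libraries of sorted early LPre-B cells (3 Ctrl, 3 *Upf1*-cKO), made with a directional kit after rRNA depletion. Per the labels and the study's methods, the authors trimmed reads with cutadapt 4.0, mapped them to mm10 with HISAT2 (single end, unstranded), counted them per gene with featureCounts 2.0.1 and used limma 3.48.0. Whether counting used strand is not given in the sources used here. The deposited values are a linear signal, reads plus 0.5 over the effective library size times 1e6, per Entrez ID. Every value came out as whole reads once each column's scale was found, within 0.02 of a read at low counts. For high counts the tolerance grew with the count, so the highest rows were not checked closely. Low genes had been removed before deposit. Symbols came from RefSeq (13008 of 13426 IDs) and GENCODE (3), and 415 stayed unnamed.

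Limma 3.58.1 in R 4.3.3 was fitted to log2(value + 1) with group as the only term and trended, robust empirical Bayes, and p-values were Benjamini-Hochberg adjusted over all 13426 genes. Fold changes are on that scale, and a call is an adjusted p under 0.05. The fit was also run on simulated reads in which few genes were changed, equally up and down. That run does not check the test where as many genes differ as here. Levels per kb used the longest transcript of a gene in GENCODE. The alternatives were a replicate block, edgeR 4.0.16, DESeq2 1.42.0 and voom on the recovered reads, no trend, pseudocounts of 0.1 and none, a minimum mean log2 of 3, other scalings, and each library left out. The members, lists and named genes were chosen with earlier results of these data known. Named were all members, *Upf1*, at most 4 called genes of largest change per list plus all of a list of 8 or fewer, and the 3 genes most like the members that fell and rose most. Other genes named are markers, genes that overlap a member, or marked in the text as chosen after their values were seen. Some items are not reported here. Replicate libraries differed by more than counting noise. The study's methods describe the samples of a group as biological replicates, and the labels do not tie libraries to single mice.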

Additional observations from a re-analysis of the deposited data

How the results depend on the processing

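Of the 10 members, 8 held the same sign and the same call in each of 17 alternative settings. For *E2f1* the log2 fold change lay between -1.36 and -1.05 over them, and for *E2f6* between 0.55 and 0.95. *Rbl1* missed the threshold with quantile normalisation (-0.18, adjusted p = 0.0546), scaled to total reads (-0.077) and without *Upf1*-cKO replicate 1, with -0.32 to -0.23 over the libraries left out in turn. *Rbl2* passed when scaled to total reads (0.32), which made 2 members higher. The number lower was then 7, as with quantile normalisation. Scaled to total reads, 1936 genes of the table were lower, in place of 3351. The distinct pathway genes called higher numbered 9 when centred on the median, where 2992 genes of the table were higher. They numbered 10 to 16 with 1 library left out, the fewest without *Upf1*-cKO replicate 3. The cause was not tested. Each of the 6 ratios kept its direction in every setting run, but these settings could hardly reverse it. Groups that do not overlap keep their direction when 1 library is left out. Division by transcript length and the replicate block leave the difference unchanged. *Upf1* missed the threshold when centred on the median (0.20) and without trended or robust estimation (adjusted p = 0.0685).

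The replicate numbers did not pair the libraries (r of same-numbered deviations 0.126, -0.0632 and -0.0792 over 9202 genes). With the number as a replicate block, 8 members were lower and 1 higher, 3668 genes of the table were higher and 3321 lower, and 14 distinct pathway genes were higher and 94 lower. The block left *Rbl1* called and *Rbl2* not called. The smallest p a paired permutation of a ratio allows is 0.25. With 3 libraries a group, exact tests of single values cannot go below 0.1, and the low genes named (*Bbc3*, *Ccnd1*, *Cdkn2a*, *Pmaip1*) rest on few reads.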

Other observations

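E2F words in the promoter window were also read across the table, as a description. The 492 genes with such a word had a median log2 fold change of -0.10, with 36.8% called lower and 23.4% called higher in limma. The 9701 genes with a window and no such word had a median of 0.03, with 24.7% lower and 29.1% higher. Genes that share a promoter word are not independent, and no test was run.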
